A study of Mus musculus with 6 samples.

Results

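The genes described here build, cut or anchor the extracellular matrix of the liver, or mark the mesenchymal cells that make it. They were chosen by gene symbol, with earlier results of these data known. The rule took all collagens, laminins, fibulins, tissue inhibitors of metalloproteinases (Timp) and lysyl oxidases on the array. It added 22 further names such as Fn1, Dcn, Acta2 and Tgfb1. In all, 79 of the 12393 genes with a probe set of their own met the rule, 58 by symbol pattern and 21 by name, among them 36 collagens and 10 laminins. The remaining name, Fbn1, was not analysed here, and Ccn2 was found through its older symbol Ctgf. The samples were livers of 3 wild-type and 3 PiZ mice, all 6 weeks old and labelled C57BL/6, with 1 Affymetrix array per biological replicate. PiZ mice are transgenic for the human Z form of alpha-1 antitrypsin, a secreted protease inhibitor that misfolds and collects in the endoplasmic reticulum of hepatocytes, and their line was kept on that background. The labels do not state the sex of the mice, whether the groups were littermates or the copy number of the transgene, and the human transgene itself was not analysed. Values are log2 intensities of whole liver, so a step of 1 is a doubling, and a gene's values can be compared between arrays but not with those of another gene.

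Hepatic stellate cells lie between hepatocytes and the sinusoidal endothelium, store vitamin A, and in chronic injury turn into contractile cells that lay down fibrillar collagens of types I and III. Collagen IV, laminins, nidogen and perlecan form basement membranes, which in healthy liver surround ducts and larger vessels, while sinusoids carry only a sparse form of this matrix. TGF-beta drives collagen production, lysyl oxidases cross-link the secreted fibres, and Timp proteins hold back the proteases that degrade them.

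A gene was called bright where its mean over all 6 arrays reached 6.15, the mean of the array medians, and dim below it. This put 39 of the 79 genes (49.4%) among the bright, against 57.8% of all genes. Nearest to the bound lay Fbln5 with a mean of 6.23 and Lama2 with 6.27 on the bright side, and Col15a1 with 6.01 and Lrat with 6.00 on the dim side. The arrays differed in the 3′ minus 5′ difference of the control probe sets, and the cause of this was not tested. Averaged over Gapdh and Actb, the difference lay between 2.20 and 2.70 on the wild-type arrays. It was 2.50 on PiZ replicate 1, 4.64 on replicate 2 and 4.33 on replicate 3. PiZ replicate 1 is therefore given apart below, and its part and that of the 3′ minus 5′ difference in each result were not tested beyond the values shown. Hepatocyte markers were bright for 11 of 11 genes, with summed linear intensities of 219988 to 222304 in wild-type and 177614 to 207643 in PiZ.

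Matrix genes changed in both directions between the groups. In all, 15 of the 79 genes (19.0%) passed limma's test at an adjusted p below 0.05, against 23.6% of all genes. Of these, 9 were higher in PiZ (Rgs5, Col15a1, Loxl4, Fbln2, Col12a1, Col4a1, Col16a1, Lox and Lama5), where 11.3% of all genes were higher. The 6 lower genes were Lama3, Lum, Col4a5, Fn1, Fbln5 and Col14a1, where 12.3% of all genes were lower. The fibrillar collagens, Acta2, Des, Vim and the TGF-beta genes did not pass. Among the bright members 9 of 39 passed (23.1%), 4 higher and 5 lower, against 32.8% of all bright genes, 13.8% higher and 19% lower. Of the 5 lower ones, Fbln5 and Col4a5 had PiZ means of 5.81 and 5.80, under the bound, and are bright through their wild-type values. Among the dim ones 6 of 40 passed (15%), 5 higher and 1 lower, against 10.9% of all dim genes, 7.76% higher and 3.14% lower. Where a share of all genes is set beside a group below, it mixes bright and dim genes, whose shares differ as given here.

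**Figure D1:**
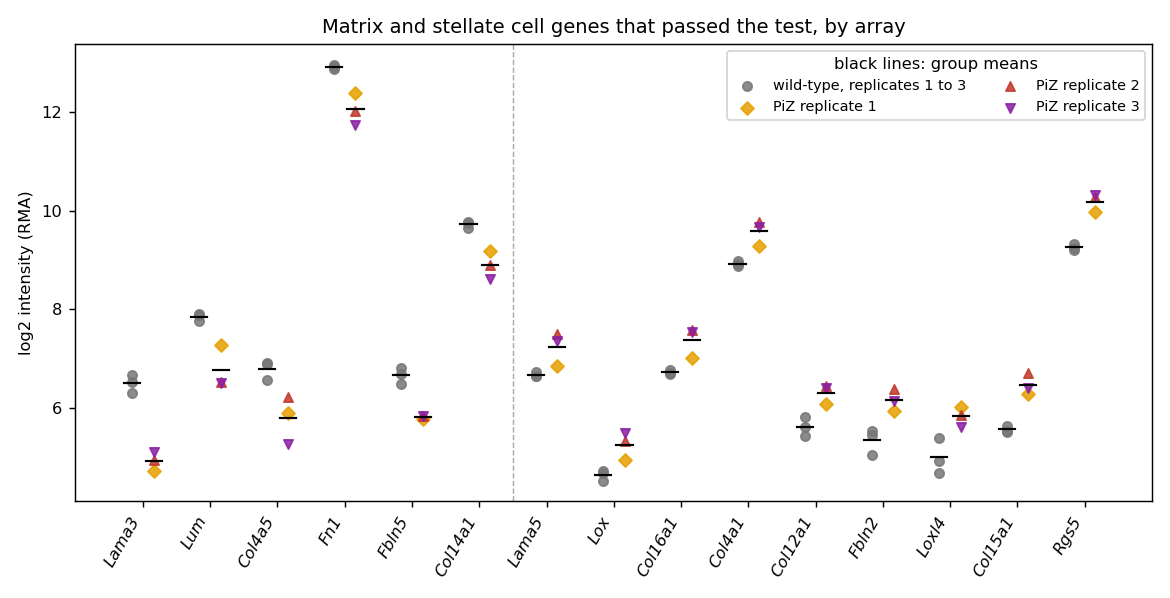
Log2 intensity on each array of the 15 matrix and stellate cell genes that passed limma's test, the 6 lower in PiZ on the left and the 9 higher on the right, with black lines at group means. No PiZ array overlaps a wild-type array for any of the 15, and levels of different genes are not comparable.

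The median difference over the 79 genes, PiZ minus wild-type, was 0.12, beside 0.08 over all genes. With PiZ replicate 1 alone it was -0.01, beside 0.01, and with the mean of replicates 2 and 3 it was 0.19, beside 0.12. In 29 of the 79 the groups did not overlap, 21 higher and 8 lower, while 44.8% of all genes did not overlap. Among bright members this held for 14 of 39, beside 3775 of all 7162 bright genes. Among dim members it held for 15 of 40, beside 1775 of all 5231 dim genes. The number of members that passed depended on single arrays. It was 33 without PiZ replicate 1 (25 higher, 8 lower), when 49.8% of all genes passed, and 5 without wild-type replicate 3 (3 higher, 2 lower), when 8.62% did. It was 7 without wild-type replicate 1 (8.92% of all genes), and 9 each without wild-type replicate 2 (10.2%), PiZ replicate 2 (14.4%) and PiZ replicate 3 (11.6%). Rgs5, Col15a1, Fbln5 and Lama3 passed in every one of these 6 fits, and all 15 genes passed again without PiZ replicate 1. In a fit with the 3′ minus 5′ difference as an added term (the covariate fit), 9 members passed, against 14.6% of all genes. Rgs5, Col15a1, Loxl4 and Col4a2 were higher, and Lama3, Lum, Fbln5, Col1a2 and Col3a1 lower. Only PiZ replicates 2 and 3 had a large 3′ minus 5′ difference, so the covariate fit rests largely on PiZ replicate 1 against wild-type. It is thus not separate from a fit of that array alone. PiZ replicate 1 alone against wild-type gave 4 higher and 6 lower members, when 18.6% of all genes passed. Array weights gave 38 members (52.6% of all genes), and centring on reference genes gave 12 (18.6%). Cyclic loess gave 16 (22.3%), a further quantile normalization 17 (22%), the mean of each gene's probe sets 17 (23.1%) and a trended, robust variance model 15 (23.1%). With dim genes left out 11 of 39 passed (35% of the genes then tested).

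**Figure D2:**
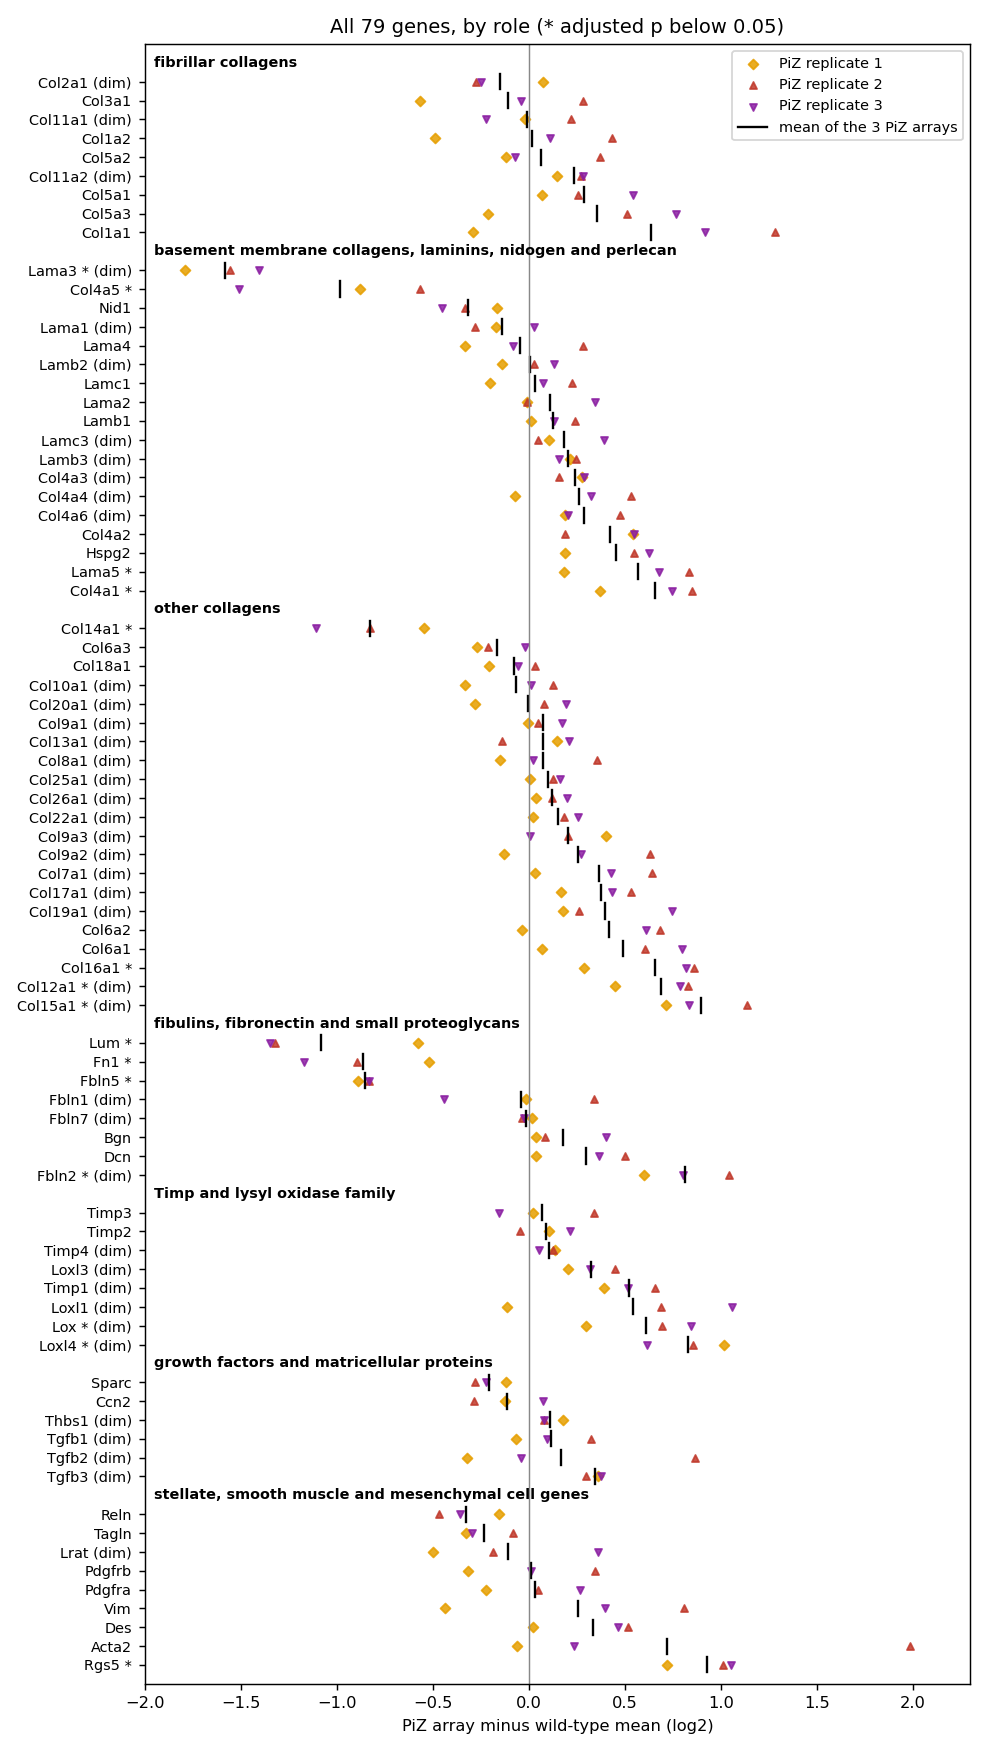
Each PiZ array minus the wild-type mean (log2) for all 79 genes, grouped by role, with a bar at the mean of the 3 PiZ arrays and an asterisk for an adjusted p below 0.05. PiZ replicate 1 lies to the left of replicates 2 and 3 for all 6 bright fibrillar collagens, and PiZ replicate 2 stands apart for Acta2.

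The fibrillar collagens form the rope-like fibres of scar tissue. Of these, 0 of 9 passed limma's test, where 23.6% of all genes did, with 0 of 9 at an unadjusted p below 0.05 too. Col1a1, a chain of type I collagen, read 6.91, 7.75 and 7.29 on the wild-type arrays and 7.03, 8.60 and 8.24 on the PiZ arrays. Replicates 2 and 3 of PiZ were above all wild-type arrays and replicate 1 was inside their range. The difference was 0.64 ± 0.40 (SE), with an adjusted p of 0.265. Without PiZ replicate 1 it was 1.10 and passed (adjusted p = 0.00676), in a fit where 49.8% of all genes did. PiZ replicate 1 alone gave -0.29. A dimmer probe set of Col1a1 gave 0.14 with all arrays, so the size rests on 1 probe set.

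Col1a2, the partner chain of Col1a1, read 9.71, 9.97 and 9.98 in wild-type and 9.40, 10.32 and 10.00 in PiZ. Col3a1, the chain of type III collagen, read 11.24, 11.58 and 11.60 in wild-type and 10.91, 11.76 and 11.43 in PiZ. In both genes PiZ replicate 1 was the lowest of all 6 arrays and replicate 2 the highest. The differences were 0.02 ± 0.23 for Col1a2 and -0.11 ± 0.22 for Col3a1 (SE, adjusted p = 0.956 and 0.737). Dimmer probe sets of these genes gave 0.26 and -0.53. With the covariate the same genes came out lower, at -0.54 (adjusted p = 0.0487) and -0.63 (adjusted p = 0.0444). That fit leans on PiZ replicate 1, which alone gave -0.49 and -0.56. The difference between Col1a1 and Col1a2 was not tested.

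Across the 9 fibrillar collagens the median difference was 0.06, with a range from -0.15 (Col2a1, dim) to 0.64 (Col1a1). PiZ replicate 1 had a median of -0.12, and the mean of the 2 other PiZ arrays one of 0.27. PiZ replicate 1 was below both other PiZ arrays for 6 of the 6 bright fibrillar collagens and below every wild-type array for 4 of 6. Over all bright genes these shares were 41.2% and 44.8%. The 3 type V chains, which help to start fibrils, read as Col5a1 at 0.29, Col5a2 at 0.06 and Col5a3 at 0.36, none past the threshold.

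**Figure D3:**
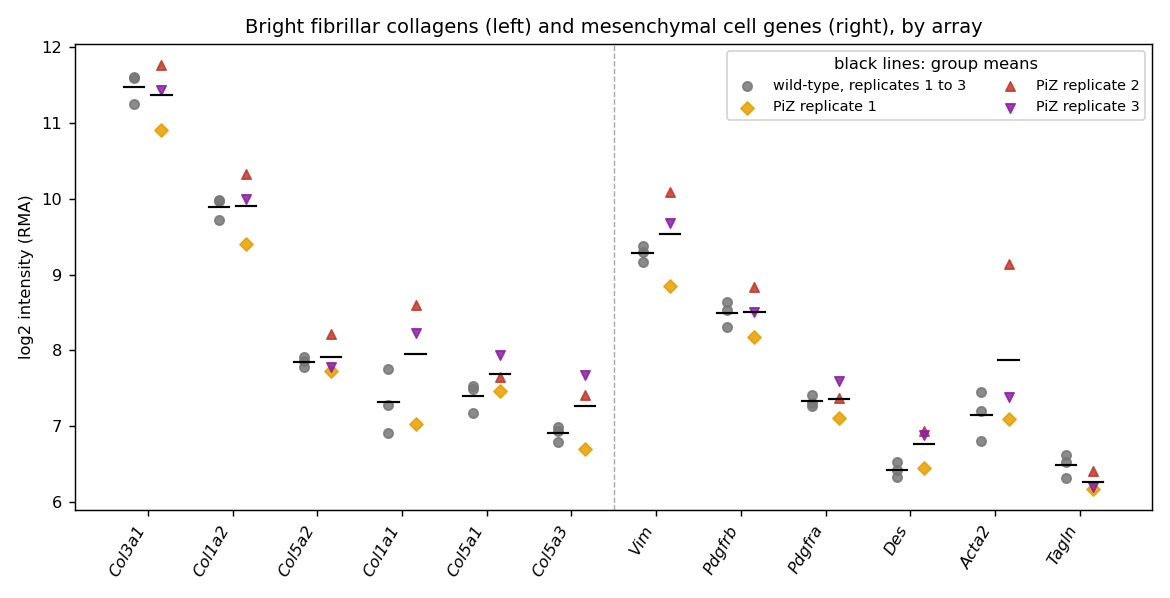
Log2 intensity on each array of the 6 bright fibrillar collagens (left) and of 6 mesenchymal cell genes (right), with black lines at group means. PiZ replicate 1 lies below the wild-type arrays for Col3a1, Col1a2, Col5a2, Col5a3, Vim, Pdgfrb, Pdgfra and Tagln. Acta2 is set apart by PiZ replicate 2 at 9.14.

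Basement membrane genes held changes in both directions: of 18 genes, 2 rose and 2 fell (22.2%), close to the 23.6% of all genes, with a median difference of 0.16. Col4a1, a chain of the collagen IV network found in nearly all basement membranes, read 8.97, 8.92 and 8.87 in wild-type and 9.29, 9.77 and 9.67 in PiZ. All PiZ arrays were above all wild-type arrays, with replicate 1 the nearest to them. The rise was 0.66 ± 0.14 (SE), or 1.58-fold, with an adjusted p of 0.0178. A further probe set of Col4a1 gave 0.98. The call was lost without any 1 of the 5 other arrays (adjusted p between 0.0501 and 0.079) and kept without PiZ replicate 1.

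Col4a2, the other chain of that network, read 8.13, 8.02 and 8.01 in wild-type and 8.59, 8.24 and 8.60 in PiZ, again with no overlap. Its difference of 0.43 ± 0.13 (SE) fell just short of the threshold (adjusted p = 0.0526). It passed without PiZ replicate 1 (adjusted p = 0.0457) and without PiZ replicate 2 (adjusted p = 0.0267). The pair is transcribed in opposite directions from a shared stretch on chromosome 8, where the RefSeq start sites on GRCm38.p6 lie 21 bases apart. The sequence from one start to the other, chr8:11312805-11312826 on the plus strand, is shown because both genes read through it. By these starts it lies after the start of each gene, not before it. A GC box (GGGCGG, either strand) is in capitals:
Col4a1 and Col4a2 starts: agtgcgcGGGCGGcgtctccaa
This box was found in 35.7% of all 32851 RefSeq windows from 250 bases before to 50 after a start. Those windows are longer than the stretch shown, so that share is not the rate for such a stretch. The capitals are a description of the letters and not a site.

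The remaining rise was in Lama5, an alpha chain of the laminins of vessel and duct membranes. It read 6.64, 6.73 and 6.64 in wild-type and 6.85, 7.50 and 7.35 in PiZ. The groups did not overlap, and the difference of 0.57 ± 0.17 (SE) was at the edge of the threshold (adjusted p = 0.0499). It passed in 7 of 16 alternative fits, and of the fits that left out 1 array only that without PiZ replicate 1 kept it (adjusted p up to 0.149 in the others). Hspg2, which encodes perlecan, a large heparan sulfate proteoglycan, read 8.10, 8.21 and 8.19 against 8.36, 8.71 and 8.80. It lay on the other side of the threshold at 0.45 (adjusted p = 0.0503).

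Lama3 fell the most of all 79 genes. It encodes an alpha chain of the laminin that anchors epithelial cells. It read 6.52, 6.67 and 6.30 in wild-type and 4.71, 4.94 and 5.09 in PiZ. Every wild-type array was above the bound of 6.15 and every PiZ array below it, so the gene counts as dim only through PiZ. The fall was -1.58 ± 0.15 (SE), 2.99-fold, with an adjusted p of 0.000935. It passed in 15 of 15 alternative fits, and the difference was -1.81 with the covariate. Lamb3, the beta chain of the same laminin, was dim and at 0.21 (adjusted p = 0.173).

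Col4a5, a chain of the collagen IV network of specialised membranes such as that of the kidney glomerulus, read 6.56, 6.91 and 6.88 in wild-type and 5.90, 6.21 and 5.28 in PiZ. The groups did not overlap, with replicate 3 the lowest. The fall was -0.98 ± 0.24 (SE, adjusted p = 0.0238), and a dimmer probe set gave -0.22. The call was lost without wild-type replicate 1, 2 or 3 (adjusted p = 0.0537, 0.085 and 0.092). Its usual partners Col4a3 and Col4a4 were dim and at 0.24 and 0.26, neither past the threshold. Nid1, nidogen, which links laminin to collagen IV, was at -0.32 (adjusted p = 0.0862) with groups that did not overlap.

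Among the other collagens, 3 of 21 rose and 1 fell (19.0%, against 23.6% of all genes), with a median of 0.15. Of the 15 dim ones 2 passed (13.3%, against 10.9% of all dim genes, whose median was 0.16). Of the 6 bright ones 2 passed (33.3%, against 32.8% of all bright genes). Col15a1, a collagen of the zone just outside basement membranes, read 5.54, 5.63 and 5.52 in wild-type and 6.27, 6.70 and 6.39 in PiZ. All PiZ arrays were higher, and all lay above the bound for dim genes while all wild-type arrays lay below it. The rise was 0.90 ± 0.13 (SE), 1.86-fold (adjusted p = 0.00503), and it passed in 15 of 15 alternative fits.

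Col12a1, Col14a1 and Col16a1 belong to the collagens that sit on the surface of fibrils and tie them to other matrix. Col12a1 (dim) read 5.61, 5.81 and 5.42 against 6.07, 6.44 and 6.40 in PiZ, a rise of 0.69 ± 0.15 (SE, adjusted p = 0.0185). Col16a1 read 6.69, 6.77 and 6.70 against 7.00, 7.58 and 7.54, a rise of 0.66 ± 0.17 (SE, adjusted p = 0.0282). In both, PiZ replicate 1 was the PiZ array nearest to wild-type. Col16a1 was kept only without PiZ replicate 1 when 1 array was left out (adjusted p from 0.0808 to 0.1 in the others), and Col12a1 only without that array or wild-type replicate 2 (adjusted p from 0.0571 to 0.0818 in the others).

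Col14a1 went the other way. It read 9.75, 9.65 and 9.76 in wild-type and 9.18, 8.90 and 8.62 in PiZ, with a clear gap between the groups. The fall was -0.82 ± 0.15 (SE), 1.77-fold (adjusted p = 0.0103), a second probe set gave -0.56, and the call was lost only without wild-type replicate 3 among these fits (adjusted p = 0.0508). The collagen VI chains, which form beaded filaments around cells, read as Col6a1 at 0.49, Col6a2 at 0.42 and Col6a3 at -0.17, none past the threshold. Col6a1 and Col6a2 passed without PiZ replicate 1, at 0.70 and 0.65 (adjusted p = 0.0059 and 0.00265). Col18a1, the precursor of endostatin and a collagen made by hepatocytes too, was at -0.08 ± 0.11 (SE, adjusted p = 0.628).

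The fibulins, fibronectin and small proteoglycans held 3 falls and 1 rise among 8 genes (50%, against 23.6% of all genes), with a median of -0.03. Fn1, fibronectin, is secreted in large amounts by hepatocytes into plasma and is also laid down in matrix. It read 12.96, 12.86 and 12.91 in wild-type and 12.39, 12.02 and 11.74 in PiZ, with no overlap. The fall was -0.86 ± 0.17 (SE), 1.82-fold (adjusted p = 0.0116), and it was lost without wild-type replicate 1 or 3 (adjusted p = 0.0537 and 0.0523). A dimmer probe set of Fn1 gave -0.14, so the size rests on 1 probe set. Of 11 hepatocyte markers, all bright, 10 were below 0 with a median of -0.27, beside 3935 of all 7162 bright genes below 0. By limma 2 were lower (Fga and Fgb) and 1 higher (Tat, at 1.12), beside 19% and 13.8% of all bright genes. The part of these markers in the result was not tested.

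Lum, lumican, is a small proteoglycan that binds collagen fibrils and sets their spacing. It read 7.89, 7.76 and 7.90 in wild-type and 7.27, 6.53 and 6.50 in PiZ. All PiZ arrays were lower, with replicates 2 and 3 lowest. The fall was -1.08 ± 0.21 (SE), 2.12-fold (adjusted p = 0.0112); without wild-type replicate 3 the adjusted p was 0.0522. Dcn, decorin, a related proteoglycan made by stellate cells, read 11.44, 11.50 and 11.39 against 11.48, 11.95 and 11.81, at 0.30 (adjusted p = 0.151). Bgn, biglycan, was at 0.18 (adjusted p = 0.324). The differences between these 3 proteoglycans were not tested.

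The fibulins are short matrix glycoproteins of elastic fibres and basement membranes. Fbln5, which is needed to assemble elastic fibres, read 6.82, 6.48 and 6.69 in wild-type and 5.77, 5.83 and 5.83 in PiZ. The PiZ arrays were close together and all below wild-type, replicate 1 included. The fall was -0.85 ± 0.12 (SE), 1.81-fold (adjusted p = 0.00404), and it passed in 16 of 16 alternative fits. Fbln2 (dim) read 5.03, 5.45 and 5.54 against 5.94, 6.39 and 6.14, a rise of 0.82 ± 0.18 (SE, adjusted p = 0.0164). It was lost without wild-type replicate 1, PiZ replicate 2 or PiZ replicate 3 (adjusted p = 0.0618, 0.0503 and 0.0563). Fbln1 and Fbln7, both dim, were at -0.04 and -0.01.

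The 250 bases before a RefSeq start of Fbln5 are shown because its fall passed in every alternative fit. They lie at chr12:101818485-101818734 on the minus strand of GRCm38.p6 and are written in the direction of transcription. Capitals mark the short SMAD element CAGAC, found 2 times, and the C/EBP-ATF element TGATGCAAT, found 1 time, both searched on either strand:
Fbln5: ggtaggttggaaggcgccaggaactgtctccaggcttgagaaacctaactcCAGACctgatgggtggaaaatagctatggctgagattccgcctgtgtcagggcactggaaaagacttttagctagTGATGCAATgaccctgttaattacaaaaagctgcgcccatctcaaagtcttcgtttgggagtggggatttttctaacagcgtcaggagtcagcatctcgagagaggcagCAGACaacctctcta
CAGAC stood in 49.6% of all 32851 windows, and TGATGCAAT in 0.192% of them and in 1 of 60 windows of the genes described here, that of Fbln5. Fbln5 has 2 RefSeq windows, and the one holding TGATGCAAT was taken for display. The presence of that element in the sequence shown was thus fixed by the choice of window. A match says what the letters are and does not show that a factor binds there.

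In the Timp and lysyl oxidase family 8 of 8 genes were above 0 and 2 of 8 passed, both higher (25%, against 23.6% of all genes). The family's median was 0.42, 6 of the 8 were dim, and the median of all dim genes was 0.16. Of all dim genes, 4061 of 5231 were above 0. Under cyclic loess 7 of the 8 were above 0, with a median of 0.28, and in the covariate fit 6 of 8, with a median of 0.17. Loxl4, a copper-dependent enzyme that cross-links collagen and elastin, read 5.39, 4.91 and 4.68 in wild-type and 6.02, 5.85 and 5.61 in PiZ. The groups did not overlap, and here replicate 1 was the highest PiZ array. The rise was 0.83 ± 0.20 (SE, adjusted p = 0.0233), lost without wild-type replicate 2 or 3 or PiZ replicate 2 (adjusted p = 0.0838, 0.0889 and 0.0673). A dimmer probe set of Loxl4 gave 0.30.

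Lox, the founding enzyme of the family, read 4.68, 4.72 and 4.52 against 4.94, 5.33 and 5.48, a rise of 0.61 ± 0.16 (SE, adjusted p = 0.03). Its 2 dimmer probe sets gave 0.09 and 0.21. It passed in 6 of 15 alternative fits, and among those that left out 1 array only without PiZ replicate 1 (adjusted p up to 0.117 in the others). Timp1, an inhibitor of matrix proteases that rises in many forms of liver injury, was dim at 3.97, 4.50 and 4.35 against 4.67, 4.93 and 4.79. Its groups did not overlap, and at 0.52 ± 0.16 (SE) it missed the threshold (adjusted p = 0.0503). Timp2 and Timp3, which are bright, were at 0.09 and 0.07 with overlapping groups.

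Of the growth factors and matricellular proteins 0 of 6 passed limma's test, against 23.6% of all genes. At an unadjusted p below 0.05, 1 was higher, and the group's median was 0.12. Tgfb1, the isoform best known for driving stellate cells, was dim and read 4.57, 4.37 and 4.46 against 4.40, 4.79 and 4.56, at 0.12 (adjusted p = 0.528); its sign turned under cyclic loess and quantile scaling, at -0.04 each. Tgfb2 was at 0.17 (adjusted p = 0.68) and Tgfb3 at 0.34 (adjusted p = 0.0726), both dim. Ccn2, a target of TGF-beta, read 6.79, 7.23 and 6.85 against 6.83, 6.67 and 7.03, at -0.11 (adjusted p = 0.616). Sparc, a collagen-binding protein of remodelling tissue, was at -0.21 (adjusted p = 0.204). With 3 arrays against 3, a difference that did not pass is not shown to be absent.

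Of the stellate, smooth muscle and mesenchymal cell genes 1 of 9 passed, Rgs5 (11.1%, against 23.6% of all genes), with a median of 0.03. Of the 8 bright ones 1 passed (12.5%, against 32.8% of all bright genes). Rgs5 encodes a regulator of G protein signalling that marks pericytes, the contractile cells around small vessels, among them stellate cells. It read 9.21, 9.31 and 9.24 in wild-type and 9.97, 10.27 and 10.31 in PiZ. All PiZ arrays were above wild-type by more than the spread within either group. The rise was 0.93 ± 0.12 (SE), 1.90-fold (adjusted p = 0.0033), and it passed in 16 of 16 alternative fits, with 0.71 under the covariate. Of its 3 dimmer probe sets, 2 were higher, at 0.66 and 0.55, and the other was at -0.10. In whole liver, more cells of a type and more RNA per cell cannot be told apart.

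The 250 bases before the RefSeq start of Rgs5, chr1:169655251-169655500 on the plus strand of GRCm38.p6, are shown because its rise passed in every alternative fit. Capitals mark the reverse-strand form, ATTGG, of the CCAAT box:
Rgs5: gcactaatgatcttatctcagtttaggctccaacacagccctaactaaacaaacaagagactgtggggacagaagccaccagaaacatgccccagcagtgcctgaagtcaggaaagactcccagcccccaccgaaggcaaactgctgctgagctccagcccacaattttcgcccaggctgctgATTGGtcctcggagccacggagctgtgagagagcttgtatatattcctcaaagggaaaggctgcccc
The CCAAT box stood in 37.4% of all windows and in 36.7% of the 60 windows of the genes described here, so its presence sets Rgs5 apart from neither.

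Acta2, smooth muscle actin, is the classic marker of activated stellate cells. It read 6.81, 7.46 and 7.20 in wild-type and 7.09, 9.14 and 7.39 in PiZ. PiZ replicate 2 stood far above all other arrays, and the other PiZ arrays lay within the wild-type range. The difference of 0.72 ± 0.49 (SE) did not pass (adjusted p = 0.302), and without PiZ replicate 2 it was 0.09. Other smooth muscle genes differed from each other on that array. Actg2 (dim) read 4.72 there and 3.76 to 3.88 on the 5 others, Myh11 (dim) read 4.84 there, 4.55 and 5.08 on the other PiZ arrays and 4.32 to 4.59 in wild-type, and Tagln read 6.41 there and 6.32 to 6.63 in wild-type.

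The remaining marker genes did not pass, and several followed the arrays. Vim, vimentin, an intermediate filament of mesenchymal cells, read 9.16, 9.38 and 9.30 against 8.84, 10.09 and 9.68, with replicate 1 the lowest of all arrays and the others the highest. It was at 0.26 (adjusted p = 0.522) with all arrays and at 0.60 without PiZ replicate 1 (adjusted p = 0.0102). Des, desmin, a filament of stellate cells, was at 0.33 (adjusted p = 0.148) and at 0.49 without that array (adjusted p = 0.0059). Pdgfrb and Pdgfra, receptors for platelet-derived growth factors, were at 0.01 and 0.03. Reln, a secreted glycoprotein made by stellate cells in liver, was at -0.33 (adjusted p = 0.101) with non-overlapping groups, and Lrat, the enzyme that stores vitamin A as esters, was dim at -0.11 (adjusted p = 0.78).

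**Figure D4:**
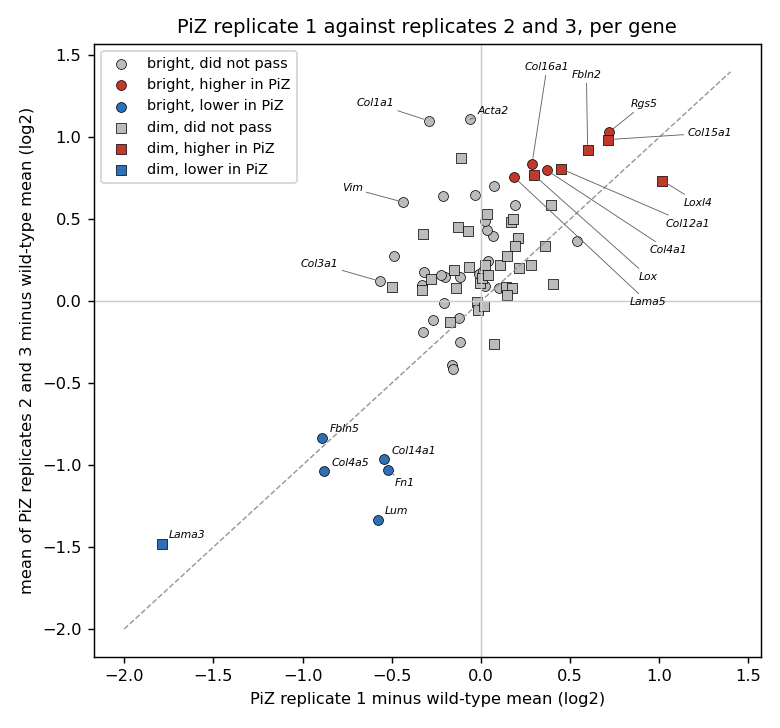
Difference from the wild-type mean (log2) in PiZ replicate 1 (x axis) and in the mean of PiZ replicates 2 and 3 (y axis), 1 point per gene, with genes that passed limma's test coloured and the dashed line marking equal values. The 6 lower genes are below 0 on both axes, while Col1a1, Acta2 and Vim are below 0 in replicate 1 and at 1.10, 1.11 and 0.60 in the others.

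Genes that act on or around the matrix were counted from lists of related genes, with the 79 genes themselves left out. Of 18 measured genes for collagen modification and export 7 rose and 0 fell (38.9%), against 11.3% of all genes higher and 12.3% lower, with a median of 0.37, beside 0.08 for all genes. Tgm2, a transglutaminase that cross-links proteins, was at 0.99 ± 0.15, P3h1, a prolyl hydroxylase of collagen, at 0.77 ± 0.12, and P4ha2, a catalytic chain of the main collagen prolyl hydroxylase, at 0.70 ± 0.12 (SE, adjusted p = 0.00522, 0.00589 and 0.0077). The 4 others that rose were Ppib, Mia3, P4ha1 and P4hb. Several of these also fold or export other secreted proteins in the endoplasmic reticulum, so the list's name covers more than collagen. Of the 18, 5 were below 0 and 1 was lower at an unadjusted p below 0.05. The sum of the list's linear intensities was 21329 to 22060 in wild-type and 30701 to 32717 in PiZ. This sum weighs the brightest genes most, and P4hb, Ppib and Tgm2, which have the highest values of the list, all rose. It is thus no measure of the list as a whole, in which 11 of the 18 genes did not pass.

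Of 29 matrix proteases and their regulators 3 rose and 3 fell (20.7%, against 23.6% of all genes). Mmp19 was at 0.94 ± 0.14 and the dim genes Mmp8, the neutrophil collagenase, and Mmp24 at 0.77 ± 0.13 and 0.49 ± 0.13 (SE, adjusted p = 0.00536, 0.00725 and 0.0329). Adam9 and Adam10, membrane proteases that shed surface proteins, were at -0.93 and -0.50 (adjusted p = 0.0458 and 0.0178). Adam9 was at -0.24 in PiZ replicate 1 and at -1.28 in the mean of replicates 2 and 3, the arrays with the larger 3′ minus 5′ difference. Reck, a membrane-bound inhibitor of matrix metalloproteinases, was at -0.74 ± 0.13 (SE, adjusted p = 0.00766). Mmp24, Adam9 and Adam10 were lost without any 1 wild-type array or without PiZ replicate 3, and the first 2 also without PiZ replicate 2 (adjusted p from 0.0602 to 0.147). Of 29 TGF-beta pathway genes 2 rose and 1 fell (10.3%, against 23.6% of all genes), with a median of 0.00. Tgfbr1, the signalling receptor, read 9.22, 9.14 and 9.29 against 8.27, 8.08 and 7.88, a fall of -1.14 ± 0.13 (SE, adjusted p = 0.002). Itgb5, a chain of an integrin that can release active TGF-beta, was at 0.88 ± 0.22, and Tgfb1i1, a focal adhesion adaptor induced by TGF-beta, at 0.76 ± 0.20 (SE, adjusted p = 0.0251 and 0.0331). Both were lost without wild-type replicate 1 or 3 or PiZ replicate 2 or 3, and Tgfb1i1 also without wild-type replicate 2 (adjusted p from 0.0646 to 0.121).

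Of 20 matrix receptors 2 rose and 3 fell (25%, near the 23.6% of all genes). Itga6, a chain of laminin-binding integrins, read 5.81, 5.31 and 5.75 against 7.04, 6.52 and 6.84, a rise of 1.18 ± 0.18 (SE, adjusted p = 0.00574). Sdc2, a heparan sulfate proteoglycan of the cell surface, fell by 0.97 ± 0.13 (SE, adjusted p = 0.00357), whereas Sdc1 rose by 0.64 ± 0.12 (SE, adjusted p = 0.0104; 0.0551 without wild-type replicate 3). Cd47, a receptor for thrombospondin, fell by 0.85 and Dag1, dystroglycan, a laminin receptor, by 0.38 (adjusted p = 0.0426 and 0.0292). Cd47 was at -0.25 in PiZ replicate 1 and at -1.15 in the others. Both were lost without any 1 wild-type array or PiZ replicate 3, and Cd47 also without PiZ replicate 2 (adjusted p from 0.0817 to 0.14). Of 13 mitogens for stellate cells 2 rose and 1 fell (23.1%, near the 23.6% of all genes). Pdgfa, a ligand of the PDGF receptors, was at 1.36 ± 0.16 and Pdgfc at 0.71 ± 0.21 (SE, adjusted p = 0.00227 and 0.0456). Igf1 fell by 1.07 (adjusted p = 0.00528). Pdgfc was lost without wild-type replicate 2 or 3 or PiZ replicate 2 or 3 (adjusted p from 0.093 to 0.153).

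Of 17 further stellate cell genes 2 rose, Nes at 0.82 and Angptl6 at 0.74 (adjusted p = 0.00936 and 0.00895), and Gucy1b1, a subunit of the nitric oxide receptor, fell by 1.08 (adjusted p = 0.0103). The share called in that list was 17.6%, against 23.6% of all genes. Of 36 further matrix proteins 4 rose and 2 fell (16.7%, against 23.6% of all genes). Tinag, a basement membrane antigen, read 3.21, 3.19 and 3.18 against 7.89, 7.08 and 7.36 (adjusted p = 3.24e-05); its wild-type values lie under the mean lower quartile of 4.35, so the measured difference of 4.26 is not an exact size. Further rises were in Vwf, made by endothelium, at 0.88, and Emilin1, an elastic fibre protein, at 0.83 (adjusted p = 0.0191 and 0.00417). Ogn fell by 0.92 and Vtn, a plasma protein secreted by hepatocytes, by 0.54 (adjusted p = 0.0484 and 0.014). Vwf was lost without wild-type replicate 1 or 3 or PiZ replicate 2 or 3, Ogn without any 1 array but PiZ replicate 2, and Vtn without any 1 wild-type array (adjusted p from 0.0506 to 0.155).

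**Figure D5:**
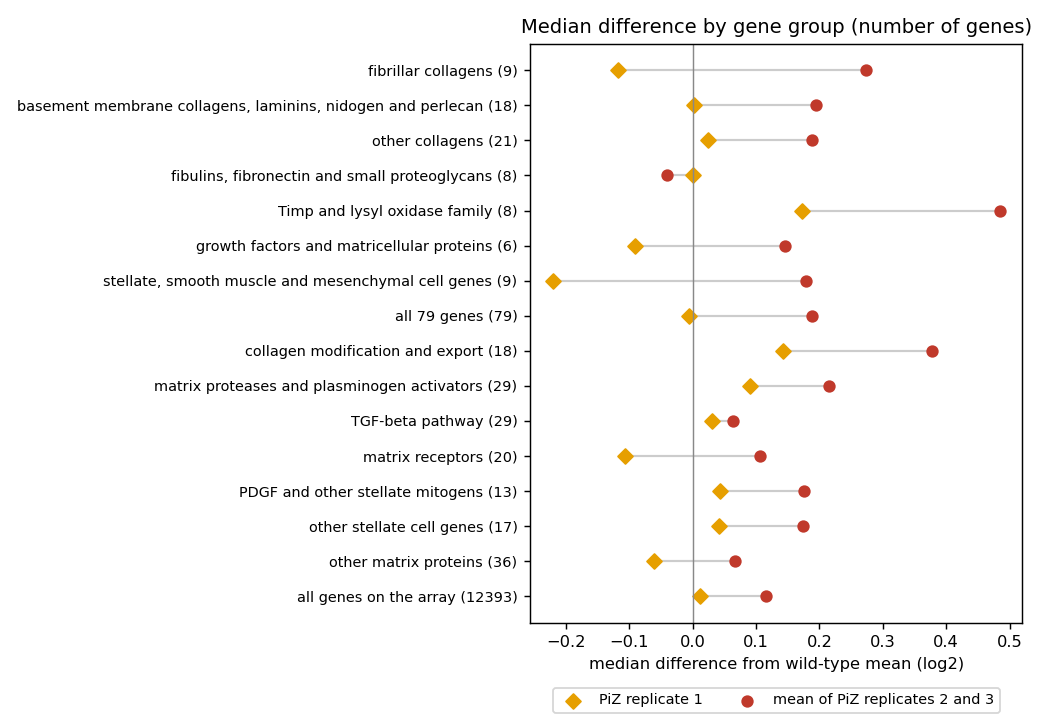
Median difference from the wild-type mean (log2) for the 7 role groups, all 79 genes, the 7 lists of related genes and all genes, with PiZ replicate 1 as diamonds, the mean of replicates 2 and 3 as circles and the number of genes in parentheses. Among the groups drawn, the circle lies left of the diamond for the fibulin, fibronectin and proteoglycan group only; cell type markers are not drawn.

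Markers of the cell types that could carry these genes moved as follows, and their part in the results was not tested. Of the 79 genes, 6 are among the 11 stellate cell markers, including Rgs5, the 1 that rose. Acta2 and Tagln are among the 7 smooth muscle markers. Those counts are thus not separate from the ones above. Over all genes 11.3% were higher and 12.3% lower, and each sum weighs the brightest genes most. Of 11 stellate cell markers 1 rose and 0 fell (2 higher and 1 lower at an unadjusted p below 0.05 in limma), with a median of 0.13 and summed linear intensities of 6032 to 6529 in wild-type and 6480 to 8052 in PiZ; Lrat, Hand2, Cygb, Ngfr and Gfap were dim. Of 10 portal fibroblast and mesothelial markers 2 rose (Entpd2 and Clec3b) and 1 fell (Gpm6a), with 7 dim. Smooth muscle markers had 0 of 7 called by limma, 1 higher at an unadjusted p below 0.05, and 4 dim, with sums of 1008 to 1197 in wild-type and 832 to 1508 in PiZ.

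The counts that follow stand beside the same shares of all genes, 11.3% higher and 12.3% lower. Of 15 endothelial markers 1 rose, Flt4, and the sums lay between 5365 and 5603 in wild-type and between 5108 and 5475 in PiZ. Of 11 Kupffer cell and macrophage markers 3 rose (Marco, Cd5l and Clec4f) and 5 were below 0, with a median of 0.06 and sums of 8921 to 9384 in wild-type and 10038 to 11902 in PiZ. Their median was 0.36 in PiZ replicate 1 and -0.10 in the mean of the 2 other PiZ arrays. Biliary markers had 0 of 7 called by limma, 3 higher at an unadjusted p below 0.05, and 6 dim, with sums of 236 to 259 in wild-type and 272 to 458 in PiZ. Erythroid markers had 1 of 6 higher (Tfrc, the transferrin receptor, which is not restricted to red cells) and 1 lower (Klf1, dim), with sums of 860 to 1042 against 1285 to 1687. Without Tfrc the sums of the 5 others were 594 to 650 in wild-type and 555 to 607 in PiZ.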

How the data were processed

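RNA from the 6 livers was labelled as biotinylated cRNA and hybridised to 1 array each, per the labels' protocols. The authors deposited log2 intensities for each probe set, made with affy and RMA per the submitters' processing notes, which name no versions. RMA forces the arrays to 1 distribution, so a shift shared by most genes is removed. The log2 scale was read from the values (2.30 to 14.98), and no detection calls were used.

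Of 22690 probe sets, 20380 name exactly 1 gene in GEO's platform annotation, 691 several and 1555 none; the last 2 kinds were not named. Each gene took its brightest probe set by the mean of all arrays. The comparison used lmFit and eBayes of limma 3.58.1 (R 4.3.3) without covariates, as a two-sided test, and p-values were adjusted by Benjamini-Hochberg over 12393 genes with a threshold of 0.05. Python 3.11.15, pandas 2.3.3 and matplotlib 3.10.9 made tables and figures. For PiZ against wild-type, limma was tested on simulated data in which 200 of 12393 genes changed. A log2 change of 1 was called for 77% of genes and one of 2 for 95%, and 11 of 183 calls were of unchanged genes. The simulated noise was independent between arrays and genes, with no array set apart by its 3′ minus 5′ difference and no change smaller than 1. These rates therefore cannot be carried over to the real arrays or to smaller differences.

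Named with values were all members that passed, the 2 brightest of each role group that did not, a fixed set (such as Col1a1, Acta2, Tgfb1 and Timp1) and up to 3 called genes in each direction of each list. Lama2, Col2a1, the type V chains, Lamb3, Nid1, Col4a3, Col4a4, Col6a1, Col6a3, Fbln1, Fbln7, Tgfb3, Pdgfra, Tagln, Actg2, Myh11, the other genes of the collagen modification list and the called markers of cell types were added after their values were seen. The members, lists and tests were chosen with earlier results of these data known. Alternatives varied how a gene's probe sets were combined, whether dim genes were kept, and where the bound of dim lay. Others varied the scaling (cyclic loess, quantile, centring on 8 reference genes), array weights, the variance model and the threshold. The 3′ minus 5′ difference or the replicate number was added to the fit, PiZ replicate 1 was taken alone, and each array was left out in turn. These fits share arrays, so a count of fits passed is not a count of separate tests. The number of arrays limits the precision. RefSeq promoter windows (GRCm38.p6) were found for 54 of the 79 genes and 9 of the 15 that passed.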

Additional observations from a re-analysis of the deposited data

How the results depend on the processing

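For the 43 called genes chosen by the naming rule, 0 of 720 alternative values reversed and 553 kept the call. Those genes were picked for passing on the same arrays. The threshold of 0.01, the other variance model, the replicate block and leaving out dim genes keep the difference itself. No sign could reverse in these settings, so the count of 0 was partly fixed in advance. Genes named beyond the rule are not in these counts. Bright members higher in PiZ, 4 in the reported fit, numbered 2 with the 3′ to 5′ covariate, 2 with PiZ replicate 1 alone, 2 when centred on reference genes, 7 with the replicate block, 9 with the bound of dim at the mean lower quartile of 4.35, 15 with array weights and 1 at a threshold of 0.01. Bright members lower, 5 in the reported fit, numbered 1 at 0.01. Dim members higher, 5 in the reported fit, numbered 2 with the covariate, 2 with PiZ replicate 1 alone, 15 with array weights, 1 at 0.01 and 0 with the lower bound; dim members lower went from 1 to 0 with that bound. Genes called over the whole array, 2921 in the reported fit, numbered 1814 with the covariate, 6520 with array weights and 914 at 0.01. Leaving out 1 array gave 1 to 13 bright members higher, 1 to 7 bright lower, 1 to 12 dim higher, 1 dim lower and 1068 to 6175 genes in all; the cause of these moves was not tested. Whether the replicate numbers pair the arrays was not tested. Deviations of arrays with the same number correlated at 0.26, 0.29 and -0.03. With the replicate block 13 members were higher and 6 lower, against 9 and 6, and more genes were called over the whole array too. The median of all genes moved from 0.08 to 0.00 under cyclic loess and to 0.10 with reference genes.

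Among 22 named genes that did not pass, some changed sign. With the covariate these were Acta2 (-0.28), Col1a1 (-0.44), Col1a2 (-0.54), Col6a2 (-0.075), Des (-0.0056), Pdgfrb (-0.37), Tgfb1 (-0.059), Tgfb2 (-0.42), Timp3 (-0.025) and Vim (-0.50). With PiZ replicate 1 alone they were Acta2 (-0.061), Col1a1 (-0.29), Col1a2 (-0.49), Col6a2 (-0.035), Pdgfrb (-0.32), Tgfb1 (-0.065), Tgfb2 (-0.32) and Vim (-0.44). Cyclic loess turned Col18a1 (0.053), Col3a1 (0.022) and Tgfb1 (-0.035), quantile scaling Tgfb1 (-0.043), the mean of probe sets Timp3 (-0.030), and array weights Lrat (0.17) and Timp3 (-0.044). Leaving out 1 array gave -0.20 to 0.023 for Ccn2, -0.19 to 0.27 for Col1a2, -0.30 to 0.12 for Col3a1, -0.34 to 0.087 for Lrat, -0.15 to 0.18 for Pdgfrb, -0.18 to 0.41 for Tgfb2, -0.10 to 0.26 for Timp3 and -0.018 to 0.60 for Vim.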

Other observations

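Probe sets of 1 gene did not always go the same way. The brightest probe set of Lamb1, a laminin beta chain, was at 0.13 (adjusted p over all probe sets = 0.489), while a dimmer one was at -0.60 (0.014). The dimmer probe set of Sparc was at -0.43 (0.0398), beside -0.21 for the brighter. The 3 probe sets of Vim lay at 0.26, -0.35 and 0.15, none past the threshold, and those of Hspg2 at 0.45 and 0.61 (0.0574 and 0.046). These genes were picked after their values were seen.

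Motifs were counted in the 60 RefSeq windows of the 54 matched genes and in all 32851 windows, searched on both strands, as a description of base composition with no test. The GC box GGGCGG stood in 56.7% of the members' windows and in 35.7% of all, CAGAC in 58.3% and 49.6%, and TATAAA in 11.7% and 13.6%. The AP-1 site TGACTCA stood in 1.67% and 5.2%.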
